A study of Mus musculus with 18 samples.

Results

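Undifferentiated adult stem cells were compared with undifferentiated embryonic stem (ES) cells, both of the 129SV genetic background, on 6 of the 18 arrays of the series. The 3 adult and 3 ES arrays were taken by their titles, and all 19938 genes that have a probe set under a symbol of their own were described. The series title names the adult cells as multipotent germline stem cells and asks how alike their transcriptome is to that of ES cells. Further groups of 3 arrays were used for context: undifferentiated adult and ES cells that carry Stra8-EGFP and Rosa26 (Stra8 cells below), and adult and ES cells of 129SV after differentiation. The labels name no drug or other treatment, and they give no feeder layer, medium, passage, age, sex or number of lines. They call the arrays of a group biological replicates without saying whether separate lines stand behind them, so the p-values measure the spread between these samples. Total RNA was read on Affymetrix Mouse Gene 1.0 ST arrays. Levels are log2 signals, changes are adult minus ES, and a change of 1 is 2-fold.

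The undifferentiated state of mouse pluripotent cells rests on a network of transcription factors around Pou5f1, Sox2 and Nanog, fed by leukaemia inhibitory factor (LIF) through Stat3. General response programmes run beside it. Hypoxia-inducible factors raise genes of glycolysis and vessel growth when oxygen is low. Atf4 raises amino acid transporters and synthetic enzymes when amino acids run short, and NF-kB raises cytokines and acute phase proteins. Interferon-induced genes answer to viral RNA and to interferon.

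Both cell types were close in overall profile and apart in many single genes. Across genes, arrays of one group correlated with r of 0.9949 to 0.9976, and an adult with an ES array with r of 0.9687 to 0.9722. The test called 9196 of 19938 genes (46.1%; limma, Benjamini-Hochberg adjusted p under 0.05 over all genes), of which 4583 were higher (23%) and 4613 lower (23.1%) in adult cells. The 3 adult values lay wholly above or below the 3 ES values for 11331 genes (56.8%). Most changes were small: for 93.2% of genes the whole 95% interval of the change was smaller than 2-fold. Changes of 2-fold or more were called for 785 genes (3.94%) and were unequal in direction, with 101 higher (0.507%) and 684 lower (3.43%). The median change of all genes was 0.06.

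Interferon-induced genes were a small share of the decreases, though most of the list was lower. Of 151 measured, 122 were lower (80.8%) and 6 higher (3.97%) in adult cells, against 23.1% and 23% of all genes. At least 2-fold lower were 97 of them, against 3.43% of all genes. Outside that list 587 genes were at least 2-fold lower, and 570 when fibroblast genes were left out too. All 101 genes at least 2-fold higher lay outside the interferon list. The mean level of the list was 7.05 to 7.08 in adult arrays, against 8.76 to 8.78 in ES arrays, and 7.19 to 7.22 in adult and 7.05 to 7.07 in ES Stra8 arrays. What follows is about the other genes.

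Marker genes were set against the labels first. Pou5f1, the central pluripotency factor, had 12.52, 12.54 and 12.63 in adult cells, against 12.68, 12.62 and 12.51 in ES cells, which overlap (adjusted p = 0.787). Sox2 had 11.41 to 11.45 in adult cells, against 11.58 to 11.68 in ES cells, and Nanog had 11.82 to 11.96 in adult cells, against 11.98 to 12.01 in ES cells; neither passed the test. As a guide to low signal, 95% of 1215 odorant, vomeronasal and taste receptor genes had a mean level under 6.47, called the receptor level below. For a gene under it in one group, a change is a difference of signals and not an exact fold. Of 27 markers of spermatogonial stem cells 8 were higher (29.6%) and 7 lower (25.9%) in adult cells. These shares are near the 23% and 23.1% of all genes. Without ES array 3 there were 3 higher and 7 lower, and without genes of chromosomes 8 and 11 there were 5 higher and 6 lower of 23. Zbtb16, which keeps these stem cells from differentiating, had means of 6.86 in adult and 6.66 in ES cells (0.20 ± 0.08, adjusted p = 0.0433). Nanos2, an RNA-binding protein of the same cells, had 5.59 to 5.89 in adult cells, against 5.62 to 5.81 in ES cells, below the receptor level in both groups. Gfra1, the receptor for GDNF, had 7.76, 7.69 and 8.04 in adult cells, against 8.49, 8.57 and 8.24 in ES cells. Zbtb16 was thus near the receptor level and Nanos2 under it in both cell types. The list as a whole was well above it, with a mean level of 8.96 to 9.08 over the adult and ES arrays. Of the 27 markers 2 were under the receptor level in every group.

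**Figure D1:**
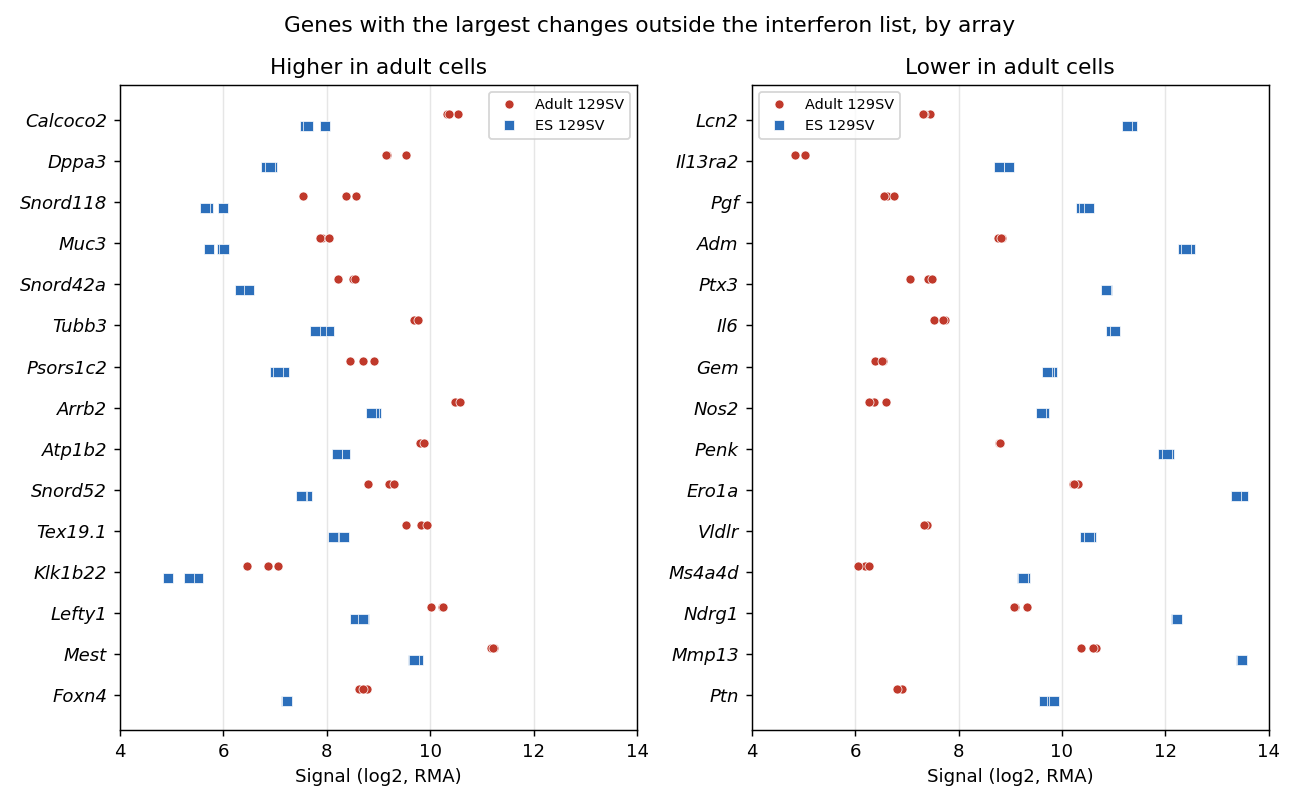
Signal (log2, x axis) of the 15 genes with the highest and the 15 with the lowest change outside the interferon list (rows), with circles for the 3 adult 129SV arrays and squares for the 3 ES 129SV arrays. Adult and ES points do not overlap for any of the 30 genes, which was a condition of their choice.

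Calcoco2 had the largest increase. In human cells its product brings bacteria and damaged mitochondria to autophagy. Its level was 10.33, 10.53 and 10.37 in adult cells, against 7.96, 7.59 and 7.64 in ES cells, a change of 2.68 ± 0.13 (SE; 6.4-fold, adjusted p = 5.41e-11). Dppa3, a gene of the germline and of naive pluripotent cells, had 9.17, 9.15 and 9.53 in adult cells, against 6.94, 6.83 and 6.90 in ES cells (5.25-fold). Tubb3, a tubulin best known from neurons, had 9.74, 9.70 and 9.76 in adult cells, against 8.04, 7.90 and 7.78 in ES cells (3.55-fold). For these 3 genes the lowest adult array was more than 2-fold above the highest ES array. Mest, an imprinted gene read from the paternal allele, had 11.18, 11.23 and 11.21 in adult cells, against 9.76, 9.66 and 9.68 in ES cells (1.51 ± 0.06). Arrb2, which ends signalling of G protein-coupled receptors, had 10.48 to 10.58 in adult cells, against 8.85 to 8.96 in ES cells. Atp1b2, a subunit of the sodium pump, had 9.81 to 9.89 in adult cells, against 8.20 to 8.35 in ES cells. The other genes of this group were the small nucleolar RNA genes Snord118 (2.37), Snord42a (2.00) and Snord52 (1.56), the intestinal mucin Muc3 (2.03), Tex19.1 (1.55), which restrains retrotransposons in germ cells, Psors1c2 (1.61), the kallikrein Klk1b22 (1.54), the Nodal antagonist Lefty1 (1.51) and the forkhead factor Foxn4 (1.48).

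Lcn2 had the largest decrease outside the interferon list. This iron-sequestering protein of the acute phase had 7.44, 7.34 and 7.32 in adult cells, against 11.27, 11.36 and 11.27 in ES cells (15.3-fold lower, adjusted p = 2.06e-15). Pgf, placental growth factor of the Vegf family, had 6.61, 6.57 and 6.75 in adult cells, against 10.36, 10.42 and 10.52 in ES cells (13.8-fold lower). Nos2, the inducible nitric oxide synthase, had 6.37, 6.28 and 6.60 in adult cells, against 9.66, 9.65 and 9.60 in ES cells. The ES arrays were far above the receptor level for these 3 genes, while the adult arrays of Pgf and Nos2 were near it. Il13ra2, a decoy receptor of interleukin 13, had 4.84 to 5.04 in adult cells, against 8.79 to 8.98 in ES cells, so that all adult arrays were under the receptor level. Also lower were the pattern recognition protein Ptx3 (-3.55), the small GTPase Gem (-3.28), the enkephalin precursor Penk (-3.21), the membrane protein Ms4a4d (-3.09), the collagenase Mmp13 (-2.92) and the growth factor Ptn (-2.92). Adm, Il6, Ero1a, Vldlr and Ndrg1 complete the 15 and are given with their programmes.

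Promoters of the hypoxia, Atf4 and NF-kB genes described next were read for the motif of the factor behind each list. Each window holds 250 bases before and 50 after a transcription start in RefSeq (GRCm38.p6), and both strands were searched. ACGTG, the core of the hypoxia response element, stood in 24 of 41 windows (58.5%) of the hypoxia genes called lower, against 21.6% of the 19177 windows of all tested genes. TGATGNAA, a motif bound by Atf4 with a partner, stood in 11 of 39 windows (28.2%) of the Atf4 genes called lower, against 3.08%. The NF-kB motif searched was GGGA, any 2 bases and TTCC, and it stood in 6 of 21 windows (28.6%) of the NF-kB genes called lower, against 1.41%. RefSeq windows were given for 28 of 30, 30 of 37 and 18 of 26 of these genes. The lists were drawn up from genes known to respond to the factors, so a high share of motifs lies in their choice, and a match shows no binding. Of the 3 most lowered genes with a single window in each list, those with a match are printed 5′ to 3′ along the gene, with the match on either strand in capitals. The windows of Adm, Stc2, Lcn2 and Il1a held none.
Ero1a (chr14:45318523-45318822, strand -): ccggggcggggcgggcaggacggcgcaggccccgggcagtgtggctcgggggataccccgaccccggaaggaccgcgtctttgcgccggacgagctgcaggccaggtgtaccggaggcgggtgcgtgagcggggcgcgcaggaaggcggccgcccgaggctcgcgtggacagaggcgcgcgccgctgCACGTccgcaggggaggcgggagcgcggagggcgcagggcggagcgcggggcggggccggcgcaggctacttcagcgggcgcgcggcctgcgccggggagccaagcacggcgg
P4ha2 (chr11:54100674-54100973, strand +): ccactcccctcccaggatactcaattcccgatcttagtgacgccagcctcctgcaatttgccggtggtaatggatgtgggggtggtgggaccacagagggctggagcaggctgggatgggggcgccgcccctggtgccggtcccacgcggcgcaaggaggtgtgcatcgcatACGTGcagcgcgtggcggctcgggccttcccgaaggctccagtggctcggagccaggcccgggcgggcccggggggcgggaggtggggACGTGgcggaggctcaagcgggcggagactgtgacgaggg
Slc7a11 (chr3:50443564-50443863, strand -): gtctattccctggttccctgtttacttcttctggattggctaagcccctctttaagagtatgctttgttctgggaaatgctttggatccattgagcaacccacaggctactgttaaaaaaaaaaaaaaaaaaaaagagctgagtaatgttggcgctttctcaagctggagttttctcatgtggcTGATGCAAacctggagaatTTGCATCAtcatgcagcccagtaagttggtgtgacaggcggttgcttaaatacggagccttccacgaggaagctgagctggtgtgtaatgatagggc
Chac1 (chr2:119350992-119351291, strand +): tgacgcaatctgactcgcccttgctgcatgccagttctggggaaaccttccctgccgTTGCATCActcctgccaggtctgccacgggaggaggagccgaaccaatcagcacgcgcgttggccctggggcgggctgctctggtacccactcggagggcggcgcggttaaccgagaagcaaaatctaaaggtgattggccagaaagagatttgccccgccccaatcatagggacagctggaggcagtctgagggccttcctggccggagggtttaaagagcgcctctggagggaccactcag
Il6 (chr5:30012864-30013163, strand +): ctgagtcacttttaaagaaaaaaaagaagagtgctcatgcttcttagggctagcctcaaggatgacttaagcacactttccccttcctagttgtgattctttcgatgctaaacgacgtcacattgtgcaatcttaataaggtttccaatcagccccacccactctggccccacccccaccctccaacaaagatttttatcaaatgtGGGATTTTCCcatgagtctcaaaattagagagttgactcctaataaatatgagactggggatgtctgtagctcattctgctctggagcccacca
The match begins 63 bases before the start in Ero1a, 193 in Chac1 and 44 in Il6, and Slc7a11 holds a pair, 66 and 47 bases before it.

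Genes of the hypoxia response and of glycolysis were lower in adult cells. Of 35 measured, 30 were lower (85.7%) and 4 higher, with a median change of -0.71 against 0.06 for all genes. Adm, the vasodilator peptide adrenomedullin, had 8.76, 8.84 and 8.82 in adult cells, against 12.33, 12.46 and 12.40 in ES cells (12.1-fold lower, adjusted p = 1.85e-16). Ero1a, which forms disulfide bonds in the endoplasmic reticulum, had 10.31, 10.21 and 10.23 in adult cells, against 13.37, 13.50 and 13.36 in ES cells (8.93-fold lower). For both genes every adult array was far below every ES array. Pfkfb3, which makes an activator of glycolysis, had 8.58, 8.45 and 8.66 in adult cells, against 11.23, 11.31 and 11.11 in ES cells. The stress gene Ndrg1 (-3.05), the mitophagy receptor Bnip3 (-2.02), the collagen prolyl hydroxylases P4ha2 (-2.15) and P4ha1 (-1.95) and the oxygen sensors Egln1 (-1.77) and Egln3 (-1.75) were lower too. Hif1a (-0.66), the oxygen-regulated factor itself, fell less.

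The enzymes of glycolysis had smaller decreases. The glucose transporters Slc2a1 (-1.18) and Slc2a3 (-0.82) were lower. Pgk1, phosphoglycerate kinase, had 11.85, 11.91 and 11.83 in adult cells, against 12.61, 12.73 and 12.77 in ES cells. Pfkl (-0.87), Ldha (-0.68), Tpi1 (-0.63), Aldoa (-0.45) and Pkm (-0.30) were lower as well, while Hk1 (0.05) did not pass. The 4 members that rose were Ldhb (0.55), Eno3 (0.54), Epas1 (0.32) and Slc16a1 (0.27). Vegfa (-1.20), the vascular growth factor, was lower. In Stra8 cells, where 13.2% of all genes were higher and 15.1% lower in adult cells, 17 members were higher (48.6%) and 2 lower (5.71%), with a median of 0.18.

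Genes raised by Atf4 were also lower in adult cells. Of 46 measured, 37 were lower (80.4%) and 0 higher by limma at an adjusted p under 0.05, with a median of -0.62. With quantile-normalised arrays 32 were lower and 2 higher. Atf4 itself, which is controlled largely by translation, had 9.89, 9.94 and 9.75 in adult cells, against 10.01, 10.01 and 9.97 in ES cells (adjusted p = 0.0807). Vldlr, a lipoprotein receptor, had 7.38, 7.38 and 7.33 in adult cells, against 10.45, 10.55 and 10.52 in ES cells (8.82-fold lower). Slc7a11, the cystine transporter that feeds glutathione synthesis, had 6.54, 6.61 and 6.30 in adult cells, against 8.72, 8.89 and 8.91 in ES cells. Adult and ES arrays were more than 2-fold apart for both genes. Chac1 (-1.87), which breaks down glutathione, the secreted Stc2 (-1.80), the glycine transporter Slc6a9 (-1.58) and the mTORC1 inhibitor Ddit4 (-1.50) were lower, as were Cth (-1.41), Slc7a1 (-0.92), Asns (-0.88) and Psat1 (-0.67) of amino acid supply. Phgdh (-0.11), Mthfd2 (-0.09) and Slc7a5 (0.12) did not pass. In Stra8 cells 8 were higher (17.4%) and 11 lower (23.9%), against 13.2% and 15.1% of all genes. Chaperones and other genes of the unfolded protein response did not lean downwards. Of 25, 10 were higher (40%) and 6 lower (24%), against 23% and 23.1% of all genes. Creld2 (0.56) and Xbp1 (0.33) were among the higher and Dnajb9 (-0.92) among the lower. Ero1a, given above, stands in that list too and is its lowest member.

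Of 34 genes of the NF-kB and acute phase response 26 were lower (76.5%) and 0 higher in adult cells by the same test, with a median of -0.94. Il6, an inflammatory cytokine, had 7.53 to 7.75 in adult cells, against 10.94 to 11.02 in ES cells (-3.33 ± 0.13). The cytokine Il1a (-2.90), the neutrophil chemokines Cxcl2 (-2.35), Cxcl5 (-1.72) and Cxcl1 (-1.03) and the acute phase gene Saa3 (-2.44) were lower. So were the feedback inhibitors Tnfaip3 (-1.80) and Nfkbia (-1.20) and the inducible cyclooxygenase Ptgs2 (-1.39). The NF-kB subunit Rela (-0.17) and the cytokines Tnf (0.09) and Il1b (0.28) did not pass. In Stra8 cells 19 members were higher (55.9%, against 13.2% of all genes) and 3 lower, with a median of 0.31. Of 18 genes of complement and coagulation 11 were lower and 1 higher, with the complement inhibitor Serping1 (-2.08), tissue factor, F3 (-2.04), and Cfb (-1.87) among the lower.

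Fibroblast genes moved with these programmes. Of 47 measured, 40 were lower (85.1%) and 2 higher in adult cells, with a median of -0.73. Their mean level was 10.17 to 10.22 in adult arrays, against 11.18 to 11.21 in ES arrays. The defining collagens were well above the receptor level in both, with Col1a1 at 12.63 in adult and 13.16 in ES cells and Col1a2 at 11.54 in adult and 12.53 in ES cells, and Fap (5.38 in adult and 6.28 in ES cells) was the one member under that level in both groups. The members that rose were S100a4 (1.23) and Col6a3 (0.24), and Acta2 (0.05), Tagln (-0.06) and Snai2 (-0.08) did not pass. Matrix proteases and their inhibitors were lower in 16 of 20 and higher in 0, led by Mmp13 (-2.92), Mmp10 (-2.64), Mmp3 (-2.63) and Mmp9 (-2.15). The hypoxia and Atf4 lists share no member with the fibroblast or interferon lists, so leaving out shared members could not change their counts. The NF-kB list shares 1 member with the fibroblast list, and without it 25 of 33 were lower and 0 higher. In Stra8 cells 47 of 47 fibroblast genes were higher in adult cells, against 13.2% of all genes. Their mean level was 10.72 to 10.76 in adult and 9.98 to 10.02 in ES Stra8 arrays. The part of fibroblast RNA in these results was not tested. In RNA of whole cultures, fewer cells of a type and less RNA per cell cannot be told apart.

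**Figure D2:**
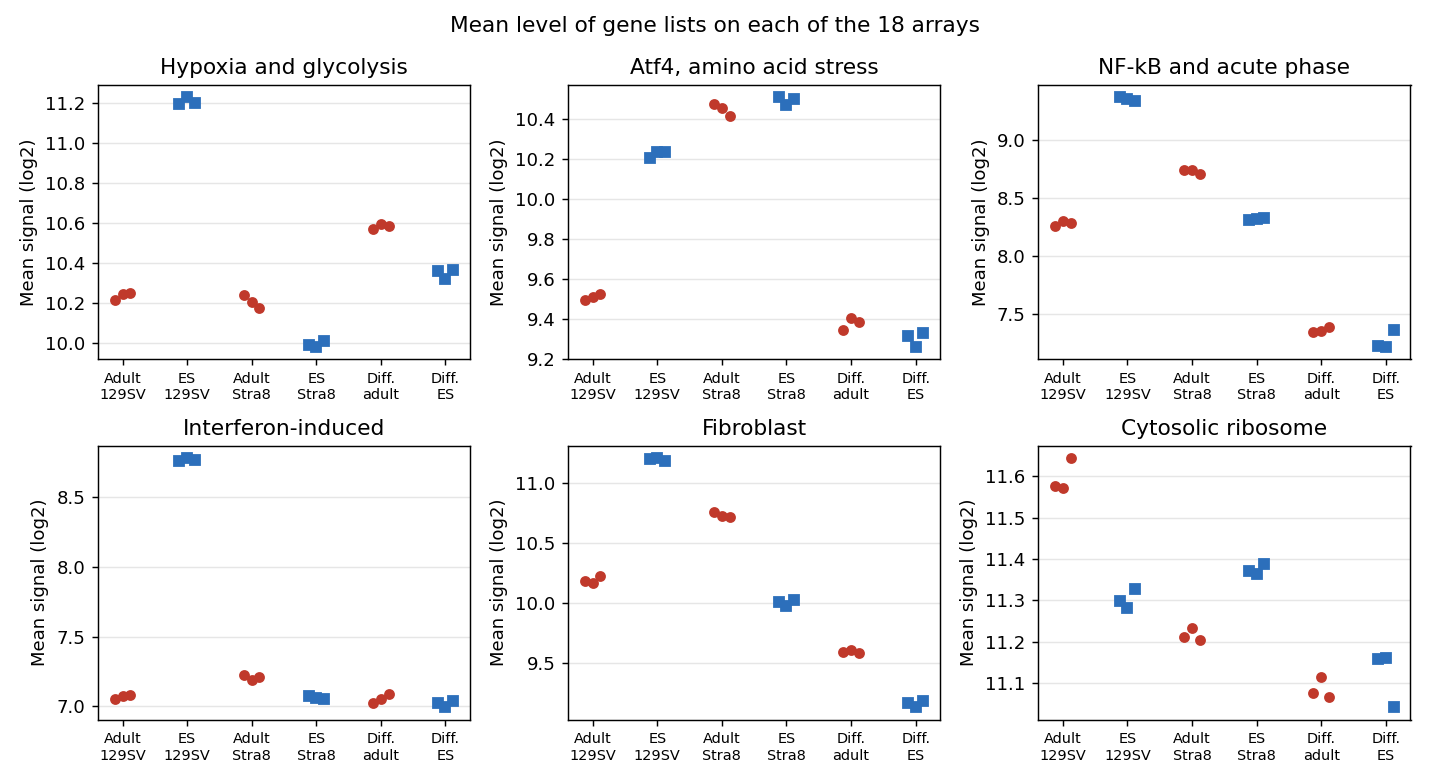
Mean signal (log2, y axis) of 6 gene lists on each of the 18 arrays, by group (x axis), with circles for adult and squares for ES cells. The hypoxia, NF-kB, interferon and fibroblast lists are highest in the 3 ES 129SV arrays, the Atf4 list in ES Stra8 arrays (10.47 to 10.51) and the cytosolic ribosome list in adult 129SV arrays (11.57 to 11.64).

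The list levels show which group stood apart. The hypoxia list was at 10.21 to 10.25 in adult and 11.20 to 11.23 in ES 129SV cells, 10.17 to 10.24 in adult and 9.98 to 10.01 in ES Stra8 cells, and 10.57 to 10.60 in differentiated adult and 10.32 to 10.36 in differentiated ES cells. The NF-kB list was at 8.26 to 8.30 in adult and 9.33 to 9.36 in ES 129SV cells, and at 8.71 to 8.74 in adult and 8.31 to 8.32 in ES Stra8 cells. For both lists the ES 129SV arrays were above all others. The Atf4 list was at 9.49 to 9.52 in adult and 10.21 to 10.24 in ES 129SV cells, and at 10.41 to 10.48 in adult and 10.47 to 10.51 in ES Stra8 cells, so that here the adult 129SV arrays were the lowest of the undifferentiated ones.

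The LIF pathway was lower at its receptors and kinases, while most feedback genes near its end did not pass the test. Of 22 genes 14 were lower (63.6%) and 2 higher (9.09%) in adult cells, against 23.1% and 23% of all genes. The ligand Lif (-1.17), the receptors Osmr (-1.85), Lifr (-0.85) and Il6st (-0.63), the kinases Jak2 (-1.95) and Jak1 (-1.07) and Stat3 (-0.50) were lower. Socs3, a feedback inhibitor that Stat3 induces, had 9.23, 9.16 and 9.36 in adult cells, against 9.28, 9.17 and 9.31 in ES cells, which overlap (adjusted p = 0.968). Socs1 (0.06), Socs2 (0.13) and Pim3 (-0.07) did not pass either, and Bcl3 (0.51) was higher. The pluripotency factors that LIF sustains were lower by unequal amounts, with Tbx3 (-0.75), Klf5 (-0.69), Tfcp2l1 (-0.66) and Klf4 (-0.17).

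Genes of naive pluripotency went both ways, with 9 of 41 higher (22%) and 13 lower (31.7%), against 23% and 23.1% of all genes. With quantile-normalised arrays 15 were higher and 12 lower, and the median turned from -0.04 to 0.07. Beside Dppa3, the adhesion molecule Pecam1 (0.95) and the repressor Nacc1 (0.64) were higher. Nr0b1, a nuclear receptor that binds Pou5f1, had 10.88, 11.04 and 10.99 in adult cells, against 12.13, 12.22 and 12.13 in ES cells. Among regulators of DNA methylation the de novo methyltransferase Dnmt3a had 10.64, 10.55 and 10.57 in adult cells, against 9.41, 9.45 and 9.35 in ES cells (1.18 ± 0.06, adjusted p = 6.56e-11). Its relatives Dnmt3b (-0.25) and Dnmt3l (-0.28) went the other way by small steps, and Tet1 (0.77) and Tet2 (-0.58), which oxidise methylcytosine, moved apart. Of 21 such genes 6 were higher (28.6%) and 9 lower (42.9%). The cytidine deaminase Apobec1 (-1.41) and the methyl-CpG reader Mbd2 (-0.91) were among the lowest.

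In the Nodal pathway the ligand and its antagonists moved apart. Nodal had 9.09, 9.06 and 9.21 in adult cells, against 9.89, 9.97 and 9.77 in ES cells, and its coreceptor Tdgf1 (-0.41) was lower. Lefty1, an antagonist that Nodal itself induces, had 10.03, 10.23 and 10.24 in adult cells, against 8.72, 8.55 and 8.69 in ES cells. Lefty2 had 9.15 to 9.34 in adult cells, against 8.29 to 8.41 in ES cells, and Foxh1 (0.81), the partner of Smad2, was higher. The adult and ES arrays of Nodal, Lefty1 and Lefty2 did not overlap. The receptors Acvr1b (-0.84), Acvr2a (-0.76), Tgfbr2 (-0.78) and Tgfbr1 (-0.50) were lower, Acvr2b (0.56) was higher, and Smad2 (-0.10) and Smad3 (-0.05) did not pass. Of all 30 genes 17 were lower (56.7%) and 5 higher (16.7%), against 23.1% and 23% of all genes tested. Wnt genes were higher in 14 of 40 (35%) and lower in 11 (27.5%), the latter near the share of all genes. The repressor Tcf7l1 (0.94) and the ligand Wnt5a (-1.77) were at the ends. Without genes of chromosomes 8 and 11, 8 were higher and 10 lower of 31 Wnt genes. Genes of FGF signalling were higher in 6 of 24 (25%), near the share of all genes, and lower in 9 (37.5%). The factor Etv4 (0.67) and the inhibitor Spred1 (-0.84) were at the ends.

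**Figure D3:**
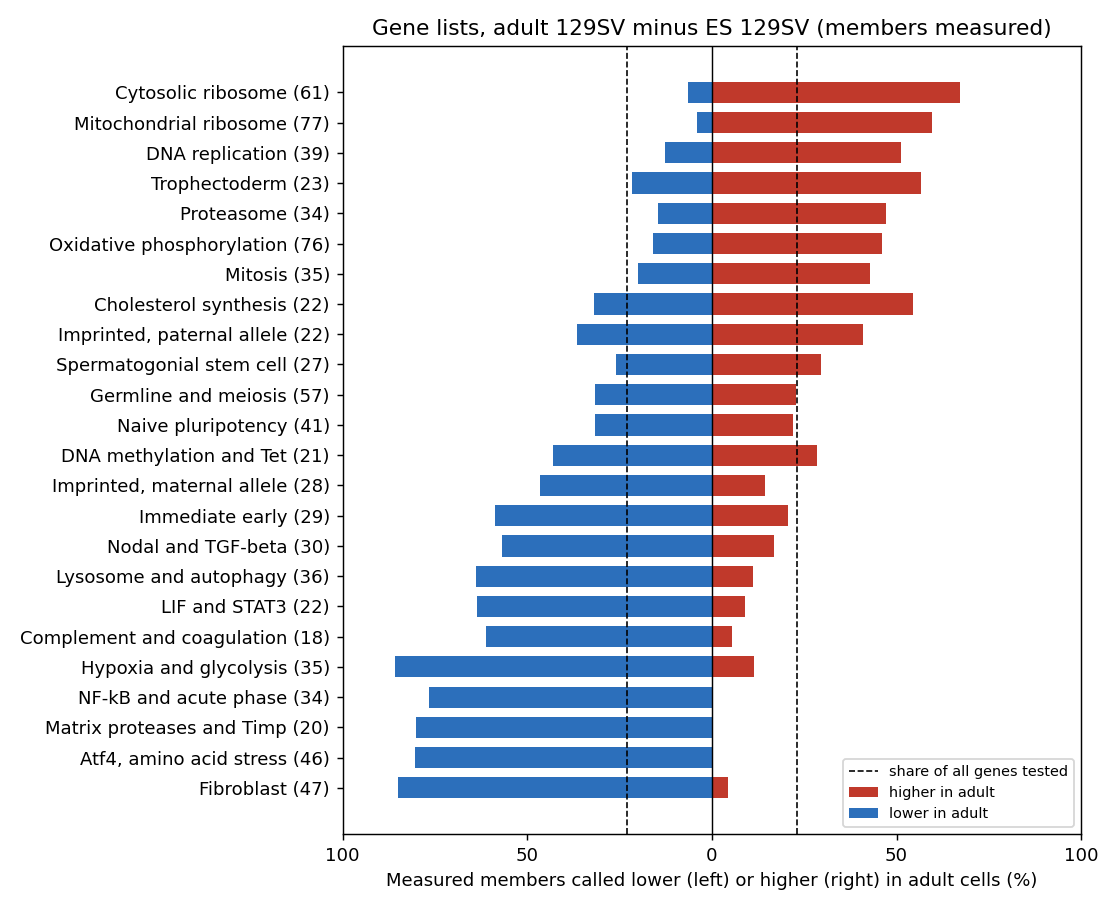
Share of the measured members of each gene list (rows, number measured in brackets) called lower (left) or higher (right) in adult 129SV than in ES 129SV cells, in percent. Dashed lines mark the shares of all genes, 23.1% lower and 23% higher. The ribosome lists reach furthest to the right, and the hypoxia, fibroblast and Atf4 lists are among those that reach furthest to the left.

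Genes of ribosomes and of oxidative phosphorylation were higher in adult cells by small amounts. Of 61 cytosolic ribosomal protein genes 41 were higher (67.2%) and 4 lower, with a median of 0.28. Rpl26, of the large subunit, had 9.48, 9.53 and 9.65 in adult cells, against 8.59, 8.58 and 8.51 in ES cells. Rplp2 (0.94), Rpl37a (0.91) and Rps19 (0.82) were higher, while Rps2 (-0.02), Rps3a1 (-0.03) and Rplp0 (0.10) did not pass. Ribosomal protein genes have many near-identical pseudogenes, so their probe sets may share signal. Of 77 mitochondrial ribosomal protein genes 46 were higher (59.7%) and 3 lower (median 0.25), led by Mrps12 (1.21) and Mrpl12 (1.10). Of 76 nuclear genes of oxidative phosphorylation 35 were higher (46.1%) and 12 lower, with the complex I subunit Ndufb7 (1.13) highest and Ndufa4l2 (-1.41), a relative induced by hypoxia, lowest. With quantile-normalised arrays 45 were higher and 5 lower. In Stra8 cells 2 cytosolic ribosomal protein genes were higher and 29 lower (47.5%, against 15.1% of all genes).

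Genes of DNA replication were higher in 20 of 39 (51.3%) and lower in 5 (12.8%), against 23% and 23.1% of all genes. The single-strand binding subunit Rpa1 (0.78) and the flap nuclease Fen1 (0.77) were at the top. The clamp Pcna (0.03) and the helicase subunit Mcm6 (0.03) did not pass. Genes of mitosis were higher in 15 of 35 (42.9%) and lower in 7 (20%). Securin, Pttg1 (1.23), and survivin, Birc5 (1.09), were at the top and the spindle motor Kif11 (-0.71) at the bottom. Proteasome subunits were higher in 16 of 34 (47.1%) and lower in 5 (14.7%), led by Psmb3 (0.77) and Psmb6 (0.73). Without genes of chromosomes 8 and 11, described below, 11 higher and 5 lower of 29 were left for replication. For mitosis 11 higher and 7 lower of 31 were left, and for the proteasome 9 higher and 5 lower of 27. In each of these lists the increases became fewer, while the decreases stayed the same in number. For cytosolic ribosomes 34 higher and 4 lower of 54 were left, and for mitochondrial ribosomes 34 higher and 3 lower of 64.

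Small nucleolar RNA genes rose together. These RNAs guide the chemical modification of ribosomal and spliceosomal RNA, and many lie in introns of genes for ribosomal proteins and translation factors. Of 51 measured, 44 were higher and 1, Snord53 (-0.37), lower in adult cells, with a median of 0.74. The class was singled out after its values were seen. Snora21 had 9.67, 9.69 and 9.61 in adult cells, against 8.32, 8.26 and 8.30 in ES cells. Snord118, the U8 RNA that takes part in maturing ribosomal RNA of the large subunit, had 7.54, 8.37 and 8.56 in adult cells, against 6.00, 5.71 and 5.65 in ES cells, with a wide spread among adult arrays. Outside chromosomes 8 and 11 the median was 0.68, and in Stra8 cells it was -0.31. Probes on such arrays cannot tell a mature small RNA from the intron that holds it.

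MicroRNA genes had no such lean, with 65 of 300 higher and 38 lower, against 23% and 23.1% of all genes. Of the 300, 136 were under the receptor level in every group. Mir221 had the largest decrease among them. One known target of its product is the cell cycle inhibitor Cdkn1b. Its level was 5.88, 5.69 and 5.46 in adult cells, against 6.89, 6.85 and 6.93 in ES cells (-1.21 ± 0.13, adjusted p = 6.96e-07), so that ES arrays alone were above the receptor level. Cdkn1b (-0.95) was lower as well. The array reads the precursor and not the mature strand. The mature sequence is shown with its seed, bases 2 to 8, which pairs with targets, in capitals (RefSeq, GRCm38.p6).
mmu-miR-221-3p (chrX:19146307-19146329, strand -): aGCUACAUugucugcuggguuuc

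Imprinted genes changed on both sides. Of 22 read from the paternal allele 9 were higher (40.9%) and 8 lower (36.4%), against 23% and 23.1% of all genes. Mest (1.51), Usp29 (0.82) and Peg3 (0.63) were at the upper end and the sarcoglycan Sgce (-1.42) at the lower. Of 28 read from the maternal allele 4 were higher (14.3%) and 13 lower (46.4%). Grb10, a growth inhibitor, had 9.18, 9.07 and 9.20 in adult cells, against 10.71, 10.73 and 10.62 in ES cells. The cell cycle inhibitor Cdkn1c (-0.93) was lower and the long RNA Meg3 (0.45) higher. The lowest of the maternal list, Dcn (-2.52) and Tfpi2 (-1.85), stand in the fibroblast and the coagulation list as well.

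Genes of trophectoderm, the outer layer of the blastocyst, leaned upwards in adult cells. Of 23 measured, 13 were higher (56.5%) and 5 lower (21.7%), against 23% and 23.1% of all genes, with a median of 0.35. Cdh3, P-cadherin, had 10.29, 10.13 and 10.30 in adult cells, against 8.91, 8.89 and 8.79 in ES cells. Hand1 (1.00), a factor of trophoblast giant cells, was higher, while the lineage factors Cdx2 (0.14) and Elf5 (0.19) did not pass and were near or under the receptor level. E-cadherin, Cdh1 (0.62), which is not a member of this list, was higher too. The keratin Krt19 (-1.72) went against Krt18 (0.93) and Krt8 (0.73). Neural genes were higher in 10 of 33 (30.3%) and lower in 4 (12.1%), against 23% and 23.1% of all genes. Tubb3 (1.83), Elavl3 (1.14) and Nes (1.00) were highest, and the lowest change was -0.67. Germline and meiotic genes were higher in 13 of 57 (22.8%) and lower in 18 (31.6%), against 23% and 23.1% of all genes. Their median was 0.09, and Tex19.1 (1.55) was the highest. Dazl, an RNA-binding protein of germ cells, had 6.69, 6.89 and 6.86 in adult cells, against 8.46, 8.34 and 8.25 in ES cells, and the meiotic genes Mael (-1.21), Hormad1 (-0.90) and Sycp3 (-0.87) were lower.

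Of 28 genes of fatty acid metabolism and lipid droplets 9 were higher (32.1%) and 9 lower (32.1%), against 23% and 23.1% of all genes. Their median was -0.05 (0.04 with quantile-normalised arrays). Fasn, fatty acid synthase, had 12.05, 12.07 and 12.08 in adult cells, against 10.89, 10.86 and 10.86 in ES cells, and Acaca (0.65) and Acly (0.54), which make its substrate, were higher. Plin2 (-1.87), which coats lipid droplets, was lower. Fasn is among the 5 of these 28 genes that lie on chromosomes 8 or 11, described below. Without genes of both chromosomes 5 were higher in place of 9. Genes of cholesterol synthesis were higher in 12 of 22 (54.5%) and lower in 7 (31.8%), with Dhcr7 (1.02) and Sc5d (-1.16) at the ends. Of 36 lysosomal and autophagy genes 23 were lower (63.9%) and 4 higher (11.1%). Ctsk, a cathepsin, had 7.21 to 7.60 in adult cells, against 9.41 to 9.54 in ES cells, and Lamp2 (-1.88), Gla (-1.84), Ctsh (-1.31) and Ctsl (-1.26) were lower. Calcoco2 rose against the lean of this list.

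Xist, the RNA that silences an X chromosome in female cells, had 7.48, 7.44 and 7.61 in adult cells, against 8.63, 8.78 and 8.70 in ES cells. Of the Y chromosome genes, Uty had means of 7.64 in adult and 8.43 in ES cells, Kdm5d of 5.79 in adult and 6.33 in ES cells, and Eif2s3y of 9.19 in adult and 9.34 in ES cells, the last of which did not pass. Among genes above the receptor level in at least 1 group, the X had the lowest median change of the 20 chromosomes, -0.14. Over all genes its median was -0.0040, and chromosomes 3, 13, 14 and 18 were lower.

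Few genes had all arrays of one cell type above the receptor level and all of the other below. The level lay between all 3 adult and all 3 ES arrays for 112 genes higher in adult cells, 89 of them called. It did so for 146 genes higher in ES cells, 141 of them called. Of those higher in ES cells 30 were interferon-induced. Outside these and predicted genes, 5 were at least 2-fold higher in adult cells: Snord118 (2.37), Muc3 (2.03), Tmem92 (1.13), Phkg1 (1.09) and Jakmip2 (1.03). The 42 at least 2-fold lower included Il13ra2 (-3.89) and Ms4a4d (-3.09), the endocytic receptor Cubn (-2.29), ceruloplasmin, Cp (-2.10), and the lipopolysaccharide receptor Tlr4 (-1.43). Tmem92, Phkg1, Jakmip2, Cp and Tlr4 were named after their values were seen. A further 13211 genes were above the receptor level on all 6 arrays and 5096 below it. The remaining 1373 had arrays on both sides of it without such a split, and 403 of them were called.

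Increases were more frequent on 2 chromosomes than on the others. Among genes above the receptor level in at least 1 group, the median change was 0.23 for the 798 genes of chromosome 8 and 0.23 for the 1303 genes of chromosome 11, against 0.00 for the 12804 genes of the other 18 chromosomes. On chromosomes 8 and 11 together 50.7% of genes were higher and 13.9% lower, against 24.2% higher and 32.7% lower elsewhere. They held 52 of the 100 genes at least 2-fold higher with a known place, and 14.1% of all genes. Of the genes called higher at any size they held 25.6%, and the other chromosomes held 74.4%. Examples among the genes named above are Calcoco2, Arrb2, Atp1b2, Tex19.1, Fasn, Birc5 and Pttg1 on chromosome 11 and Tubb3, Cdh3 and Ndufb7 on chromosome 8. Other named genes lie there too.

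**Figure D4:**
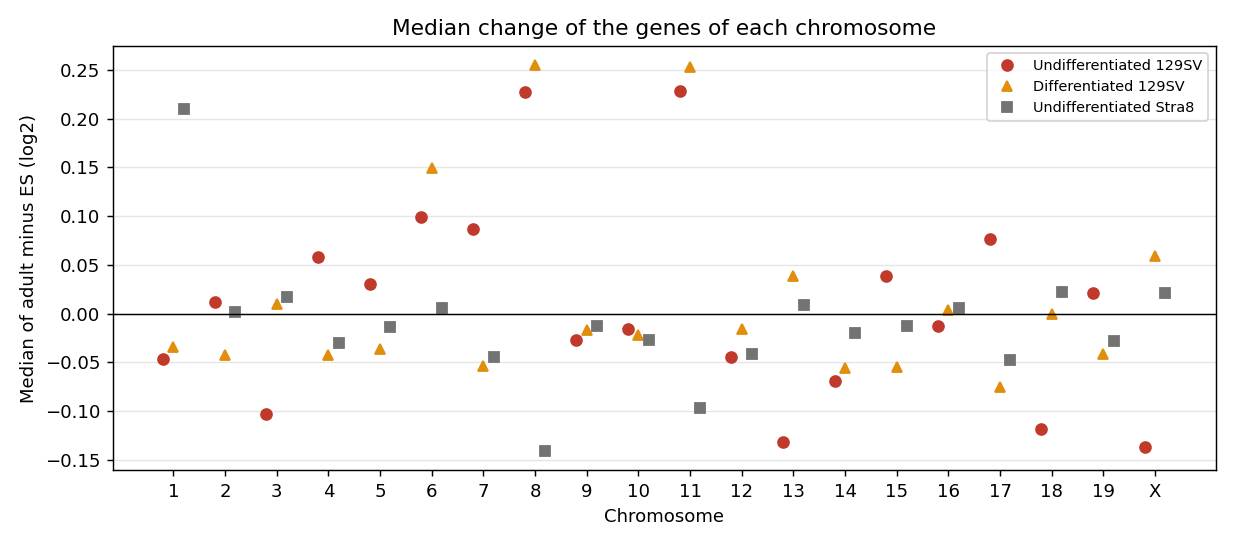
Median of adult minus ES (log2, y axis) over the genes of each chromosome (x axis) that were above the receptor level in at least 1 group, with circles for undifferentiated 129SV, triangles for differentiated 129SV and squares for undifferentiated Stra8 cells. Chromosomes 8 and 11 are the highest in both 129SV comparisons (0.23 to 0.25) and the lowest in Stra8 cells.

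Each array showed the shift. With every gene centred on its mean over the 12 undifferentiated arrays, the median of chromosome 8 relative to other chromosomes was 0.14 to 0.15 in adult arrays, against -0.10 to -0.09 in ES arrays. For chromosome 11 it was 0.15 to 0.16 in adult arrays, against -0.10 to -0.09 in ES arrays. The Stra8 arrays lay between them, with -0.09 to -0.08 in adult and 0.03 to 0.04 in ES cells for chromosome 8. Differentiated adult minus differentiated ES 129SV cells, which share no array with the undifferentiated ones, had medians of 0.25 on chromosome 8, 0.25 on chromosome 11 and 0.15 on chromosome 6. In Stra8 cells the medians of chromosomes 8 and 11 were -0.14 and -0.10, and that of chromosome 1 was 0.21.

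The shift ran along both chromosomes. With the genes of each split into 4 parts by position, the medians were 0.11, 0.28, 0.22 and 0.24 on chromosome 8 and 0.18, 0.26, 0.22 and 0.24 on chromosome 11. Running windows of 51 neighbouring genes had a median above 0 in 143 of 150 on chromosome 8 and in 244 of 251 on chromosome 11. On chromosome 7 it was 185 of 232. Successive windows share most of their genes, so they are not separate observations. Within 5 classes of promoter GC content the medians were 0.15 to 0.33 on chromosomes 8 and 11, against -0.04 to 0.04 elsewhere, so that the shift was present in every class. As background, gain of a whole chromosome 8 or 11 is known from cultured mouse ES cells. DNA copy number was not analysed here, and its part in the result was not tested.

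**Figure D5:**
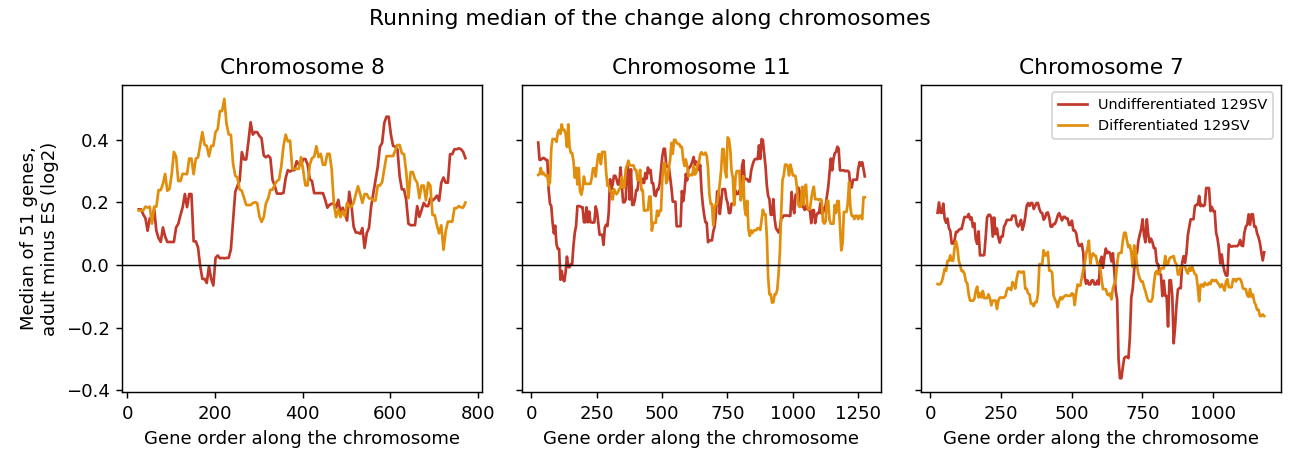
Running median of adult minus ES (log2, y axis) over 51 neighbouring genes in gene order (x axis) on chromosomes 8, 11 and 7, for undifferentiated and differentiated 129SV cells. On chromosomes 8 and 11 nearly all of the overlapping windows of the undifferentiated cells lie above 0 (143 of 150 and 244 of 251).

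The change between adult and ES cells was set against the same change in Stra8 cells. The difference of both changes was called for 8588 of 19938 genes (43.1%), and for all 30 of the genes with the largest increases and decreases. Calcoco2 was lower in adult cells of that background, with means of 7.54 in adult and 8.58 in ES Stra8 cells, and Lcn2 was higher, with means of 11.41 in adult and 10.13 in ES Stra8 cells. Pgf had means of 6.34 in adult and 6.33 in ES Stra8 cells, Ndrg1 means of 8.83 in adult and 8.81 in ES Stra8 cells and Ero1a means of 11.26 in adult and 11.29 in ES Stra8 cells. Lefty1 had means of 10.83 in adult and 10.56 in ES Stra8 cells.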

How the data were processed

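Total RNA (300 ng per array) was labelled and read on Affymetrix Mouse Gene 1.0 ST arrays, 3 per group. The authors deposited 1 log2 signal per probe set and array. The submitters' processing notes name RMA and the program Affymetrix Expression Console for this step, with no version. RMA normalises arrays to each other, so changes are relative, and a gene's signal was set against other genes' signals only through the receptor level, a guide to low signal. Of 35556 probe sets 21789 carried 1 gene symbol, 1621 several and 12146 none, and for 999 genes with several probe sets the one with the highest mean was used. limma 3.58.1 in R 4.3.3 fitted 1 mean per group to all 18 arrays (lmFit, eBayes), with Benjamini-Hochberg adjustment over 19938 genes; every adjusted p is from this fit. On simulated data it recovered 99 of 100 genes changed by 1 and 82 of 100 changed by 0.5 on the log2 scale, with 7 false calls. Far fewer genes changed there than were called in the data, so these shares need not carry over. Named genes were the 15 highest and 15 lowest outside the interferon list among called, not overlapping genes (without predicted genes), the 3 highest and 3 lowest called members of each of 50 gene lists, and a fixed panel; other list members are named to describe a list. The members and lists were chosen with earlier results of these data known. Lists got counts and medians and no test. Alternatives were the scaling, the probe set, the filter, array weights, the arrays fitted and the replicate number as a block. Replicate numbers did not pair the samples (correlations of 0.046, 0.013 and -0.037 between same-numbered arrays). The number of arrays limits the precision.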

Additional observations from a re-analysis of the deposited data

Results flagged for a closer look

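The change between adult and ES cells differed between the Stra8 and the 129SV background for all 30 of the genes with the largest changes (limma interaction, adjusted p under 0.05 over all genes). Values are the change in Stra8 cells minus that in 129SV cells on the log2 scale. The 15 genes higher in adult 129SV cells had negative differences, namely Calcoco2 (-3.71), Dppa3 (-3.05), Snord118 (-3.07), Muc3 (-2.21), Snord42a (-2.61), Tubb3 (-2.74), Psors1c2 (-1.38), Arrb2 (-1.97), Atp1b2 (-1.85), Snord52 (-2.23), Tex19.1 (-1.88), Klk1b22 (-1.24), Lefty1 (-1.24), Mest (-2.46) and Foxn4 (-1.74). The 15 genes lower in adult 129SV cells had positive differences, namely Lcn2 (5.20), Il13ra2 (4.89), Pgf (3.79), Adm (4.51), Ptx3 (4.57), Il6 (4.78), Gem (3.88), Nos2 (3.35), Penk (4.46), Ero1a (3.13), Vldlr (3.34), Ms4a4d (3.77), Ndrg1 (3.07), Mmp13 (3.49) and Ptn (3.43). The genes were chosen for a large change in 129SV cells, so a smaller change in other cells lies in part in their choice.

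The median change of chromosome 8 was -0.14 in Stra8 cells, against 0.23 in 129SV cells, and that of chromosome 11 was -0.10, against 0.23. The difference between the backgrounds was not tested. With 3 arrays per group, no search for a single outlying array was made.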

How the results depend on the processing

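The genes at least 2-fold higher in adult cells numbered 101 as reported, 168 with quantile-normalised arrays and 49 without genes of chromosomes 8 and 11, and 91 to 111 when 1 array was left out at a time. With the replicate number as a block, 9220 genes were called in place of 9196, and 8604 in place of 8588 for the difference between backgrounds. The block moved 2 counts of the gene lists by over 1.5 times, Hox genes higher to 4 in place of 2 and macrophage genes higher to 1 in place of 2. Leaving out 1 array at a time gave 8251 to 8653 called genes and 676 to 708 at least 2-fold lower. Some counts given for gene lists moved by over 1.5 times beside those named with them. With quantile-normalised arrays 4 LIF genes were higher in place of 2 and 3 replication genes lower in place of 5. Without genes of chromosomes 8 and 11, 2 interferon genes were higher in place of 6 and 5 fatty acid genes in place of 9. Without adult array 1, adult array 3 or ES array 3, 1 fibroblast gene was higher in place of 2, and without adult array 3 or ES array 1, 1 LIF gene in place of 2. For the complement list, 2 genes were higher in place of 1 with the 6 arrays alone, and 0 without adult array 1, without adult array 2 or with dim genes left out. For the Atf4 list, 1 gene was higher in place of 0 with arrays centred on their medians, with a variance trend or without ES array 1. Of 4420 results for 295 named genes under the alternatives, 73 lost the call, in 19 genes, 7 gained one and 13 turned. Quantile normalisation turned Pou5f1 (0.0725), Nanog (0.00395), Esrrb (0.00698) and Stra8 (-0.00845), none of which was called in the reported fit, array weights turned Fgf4 (-0.0118), and the mean of all probe sets turned Etv5 (-0.0236), whose probe sets were called in opposite directions. Without 1 array the change of Pou5f1 ranged from -0.0840 to 0.00295, that of Ddx4 from -0.0347 to 0.0869 and that of Fgf4 from -0.0258 to 0.0751. The causes were not tested. Signals near the receptor level limit what can be seen of dim genes.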
